A study of Mus musculus with 6 samples.

Results

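Transcript levels of 10 chromatin regulators, the Polycomb proteins and enzymes that oppose or assist them, were examined in mouse acute myeloid leukemia (AML) blasts with and without *Tet2*. The genes were *Ezh1*, *Ezh2*, *Eed*, *Suz12*, *Jarid2*, *Bmi1*, *Asxl1*, *Asxl2*, *Bap1* and *Kdm6a*, chosen by name and matched by symbol, and they are 10 of the 53458 genes of the annotation. They carry 94 annotated transcripts. RNA-seq libraries were available from 3 Cebpa-/p30 Tet2+/+ mice (mice 19, 23 and 24) and 3 Cebpa-/p30 Tet2-/- mice (mice 5, 7 and 8), 1 library per mouse, all with the strain label C57BL/6. Every library therefore lacks the full-length CEBPA isoform and carries the truncated p30 form, the Tet2+/+ controls included. Per the study's methods, floxed alleles were deleted with Mx1-Cre, an interferon-inducible recombinase induced by poly(I)-poly(C), after transplantation of donor marrow into irradiated recipients of the C57BL/6J.SJL strain. Donor-derived cells outside the T, B and erythroid lineages were sorted from the bone marrow of moribund recipients, so each library is a leukemia from 1 recipient and may hold cells at several stages. The ages of the animals at collection are not given in the labels.

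Polycomb repressive complex 2 (PRC2) places methyl groups on lysine 27 of histone H3 through EZH1 or EZH2, which work only together with EED and SUZ12, and JARID2 is a cofactor that helps the complex reach chromatin. Polycomb repressive complex 1 (PRC1), of which BMI1 is a subunit, places ubiquitin on histone H2A. BAP1, with ASXL1 or ASXL2 as its partner, removes that ubiquitin, and KDM6A removes the H3 lysine 27 methyl mark. In blood, EZH2, ASXL1 and KDM6A are recurrently mutated in myeloid malignancies, and BMI1 is known for its role in the self-renewal of stem cells. TET2 oxidises methylated cytosine, mostly at CG dinucleotides, and the comparison asks how these regulators are expressed when it is missing.

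For that reason the promoters of the 3 members whose genotypes did not overlap in gene level, *Bmi1*, *Eed* and *Bap1*, are shown with every CG in capitals. Each is the 250 bases before the transcription start in RefSeq on GRCm38.p6, read 5′ to 3′ on the strand of the gene. The *Bmi1* window is chr2:18676768-18677017 (plus strand), the *Eed* window is chr7:89980977-89981226 (minus strand) and the *Bap1* window is chr14:31251239-31251488 (plus strand).
Bmi1: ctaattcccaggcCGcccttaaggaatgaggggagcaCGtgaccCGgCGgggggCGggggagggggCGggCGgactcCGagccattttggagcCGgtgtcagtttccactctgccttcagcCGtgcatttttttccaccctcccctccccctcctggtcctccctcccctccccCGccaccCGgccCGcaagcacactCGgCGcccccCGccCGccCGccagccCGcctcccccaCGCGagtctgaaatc
Eed: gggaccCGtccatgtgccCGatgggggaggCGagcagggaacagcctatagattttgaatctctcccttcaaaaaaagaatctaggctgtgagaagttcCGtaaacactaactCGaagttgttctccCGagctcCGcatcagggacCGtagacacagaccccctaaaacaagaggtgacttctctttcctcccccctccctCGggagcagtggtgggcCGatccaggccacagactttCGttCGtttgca
Bap1: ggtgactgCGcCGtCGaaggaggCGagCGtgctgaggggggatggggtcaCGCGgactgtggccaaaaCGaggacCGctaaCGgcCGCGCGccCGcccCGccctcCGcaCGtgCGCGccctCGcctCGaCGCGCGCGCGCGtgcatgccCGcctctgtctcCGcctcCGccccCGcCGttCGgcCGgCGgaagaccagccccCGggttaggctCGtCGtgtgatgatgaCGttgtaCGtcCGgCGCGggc
The *Bap1* window holds 43 CG, a number reached by 0.712% of 32851 promoter windows, *Bmi1* holds 21 (16.3% of windows have as many) and *Eed* 12 (33.5% of windows have as many). All 10 members were found in the promoter table, *Jarid2* with 2 starts. Their 11 windows held between 11 CG (*Asxl1*) and 43 CG, against a median of 6 over all windows. The windows compared were not limited to expressed genes, so a high CG number is not shown to be particular to the members. The letters TTTCCCGC, TTTGGCGC and TTTCGCGC, forms of the E2F motif searched on both strands, occurred in 1 of the 11 windows, that of *Suz12*, and in 1.53% of all windows. DNA methylation was not analysed here, and a match of letters is a description only.

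The deposited reads summed to between 13036643 and 32855343 per library, the largest being Tet2-/- mouse 5. *Tet2* itself, the targeted gene, was at 73.6, 79.5 and 98.4 TMM-normalized CPM in the Tet2+/+ mice and at 111, 79.4 and 96.7 CPM in the Tet2-/- mice, so the level of the whole gene does not separate the genotypes and does not check the labels. Of 8 myeloid blast markers, 1 was lower without overlap and 0 higher, where 7.94% and 6.41% of all genes were. This was the granule gene *Mpo*, at 4110 to 4527 CPM in Tet2+/+ and 2662 to 3394 CPM in Tet2-/- libraries, whereas the granule genes *Elane*, *Ctsg* and *Prtn3* overlapped, with log2 fold changes of 1.19, -0.064 and 0.065. The summed level of 6 mature neutrophil markers varied widely, from 6592 to 37558 CPM in Tet2+/+ and from 15460 to 75886 CPM in Tet2-/- libraries, the lowest being mouse 23 and the highest mouse 7. The summed monocyte and macrophage markers were at 476 to 943 CPM in Tet2+/+ and 320 to 1371 CPM in Tet2-/- libraries, with mouse 7 the lowest and mouse 8 the highest. The summed markers of B cells stayed at or under 82.7 CPM and those of T and NK cells at or under 124 CPM in every library. The summed erythroid markers were at 54.5 CPM in mouse 19 and at 2.73 to 5.76 CPM in the other libraries. *Xist* was at 479 to 1338 CPM in all 6 libraries, whereas the Y-linked *Ddx3y* and *Uty* were under 0.4 CPM and *Kdm5d* was at 2.02 to 4.22 CPM.

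All 10 members were expressed and passed the filter on low counts, with between 353 and 5948 reads per gene and library. None of the 10 passed an adjusted p of 0.05 (edgeR, quasi-likelihood test, Benjamini-Hochberg over 22170 genes), where 0.0451% of all genes did. The smallest adjusted p among the members was 0.604, and DESeq2 also called 0, where it called 1.74% of all genes. At an unadjusted p under 0.05, 1 member was lower (*Bmi1*) and 0 were higher, against 5.12% of all genes lower and 3% higher. In 1 of 10 members every Tet2-/- mouse lay below every Tet2+/+ mouse, against 7.94% of all genes, and in 2 of 10 (*Eed* and *Bap1*) every Tet2-/- mouse lay above, against 6.41% of all genes. These shares rest on 10 genes. The log2 fold changes ran from -0.68 to 0.25 with a median of 0.025, 4 negative and 6 positive, beside a median of 0.0016 over all genes tested.

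**Figure D1:**
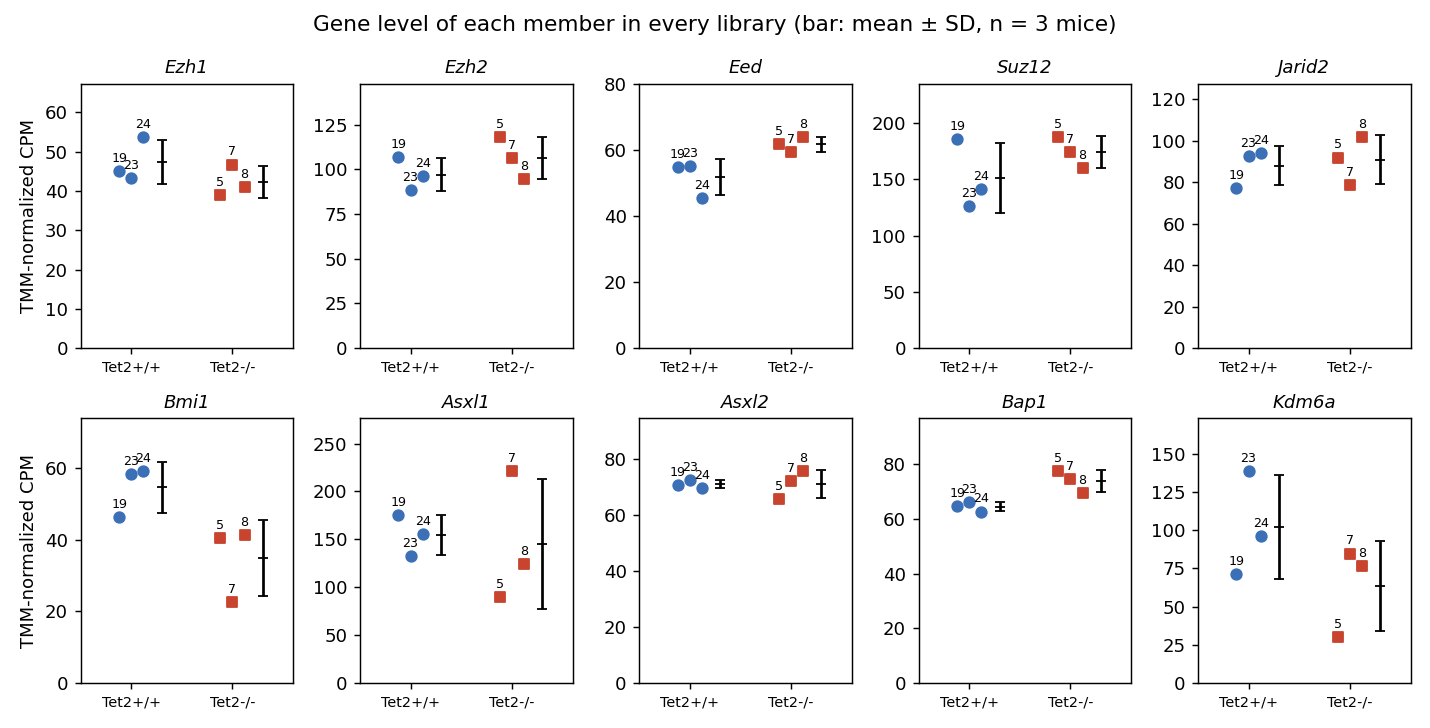
TMM-normalized CPM (vertical axes, from 0) of each member in the 3 Tet2+/+ (blue circles) and 3 Tet2-/- (red squares) libraries, with the mouse number at each point and the mean ± SD as a black bar. The genotypes separate for *Bmi1* (lower in Tet2-/-), *Eed* and *Bap1* (both higher), and mouse 5 is the lowest library for *Asxl1* and *Kdm6a*.

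*Bmi1*, the PRC1 member (ENSMUSG00000026739, chr2:18677018-18686629), was at 46.4, 58.4 and 59.1 CPM in Tet2+/+ mice 19, 23 and 24 and at 40.5, 22.7 and 41.5 CPM in Tet2-/- mice 5, 7 and 8. All 3 Tet2-/- values lay below the lowest Tet2+/+ value, and mouse 7 was the lowest by a wide margin. The means were 34.9 ± 10.6 CPM (SD, n = 3) in Tet2-/- and 54.6 ± 7.13 CPM (SD, n = 3) in Tet2+/+. The log2 fold change was -0.65 (standard error 0.26, 95% interval -1.26 to -0.03), with an unadjusted p of 0.0421 and an adjusted p of 0.604 in edgeR (Benjamini-Hochberg). Exact permutation of the 6 values, two-sided, gave p = 0.1, the smallest that 3 mice against 3 allow. Without mouse 7 the log2 fold change was -0.42 (unadjusted p = 0.0502 in edgeR), without mouse 23 it was -0.62 (unadjusted p = 0.0928), and without mouse 24 it was -0.59 (unadjusted p = 0.112).

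The summed levels of the progenitor and of the mast cell markers were lower in every Tet2-/- mouse than in any Tet2+/+ mouse. Within the lists, 1 of 5 and 1 of 3 tested genes were lower without overlap (*Cd34* and *Cpa3*), against 7.94% of all genes. The summed level of 5 stem and progenitor markers was 282 to 408 CPM in Tet2+/+ and 148 to 216 CPM in Tet2-/- mice, again with mouse 7 the lowest. *Cd34*, a surface protein of progenitors, was at 170, 310 and 193 CPM in Tet2+/+ and at 90.0, 32.1 and 132 CPM in Tet2-/- mice. The other 4 markers of that list overlapped, with *Kit* at 90.3 to 141 CPM in Tet2+/+ and 41.7 to 108 CPM in Tet2-/- mice, and *Flt3* had a log2 fold change in the other direction, 1.75. The summed basophil and mast cell markers were at 281 to 368 CPM in Tet2+/+ and 25.6 to 102 CPM in Tet2-/- mice. The most abundant of them in every library was *Cpa3*, at 263 to 362 CPM in Tet2+/+ and 16.8 to 87.7 CPM in Tet2-/- mice, whereas *Mcpt8* and *Ms4a2* overlapped. The defining stem cell genes *Hlf* and *Mecom* were under 1 CPM in all 6 libraries. Also lower without overlap were 1 of 4 tested megakaryocyte, 1 of 5 erythroid and 1 of 7 T and NK markers (*Itga2b*, *Alas2* and *Klrd1*). The sums of those lists overlapped. *Itga2b* was at 39.5, 43.8 and 23.7 CPM in Tet2+/+ and 13.7, 21.7 and 6.95 CPM in Tet2-/- mice. The part of these cells in the *Bmi1* difference was not tested, and in sorted bulk RNA fewer cells of a type and less RNA per cell cannot be told apart.

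The PRC2 enzymes differed little between the genotypes. *Ezh2* (ENSMUSG00000029687, chr6:47530139-47595341) was at 107, 88.3 and 96.0 CPM in Tet2+/+ and 118, 106 and 94.9 CPM in Tet2-/- mice, and the groups overlapped. Its log2 fold change was 0.13 (95% interval -0.25 to 0.51), and it was -0.038 when libraries were scaled by size only. With 1 mouse left out it ran from 0.044 to 0.21. *Ezh1* (ENSMUSG00000006920, chr11:101191115-101226463), the paralog that prevails in resting cells, was at 45.2, 43.3 and 53.9 CPM in Tet2+/+ and 39.0, 46.7 and 41.0 CPM in Tet2-/- mice, also overlapping. Its log2 fold change was -0.17 (95% interval -0.56 to 0.22). Per length, gene TPM of *Ezh2* was 7.54, 6.54 and 5.44 times that of *Ezh1* in Tet2+/+ and 9.93, 8.10 and 6.09 times in Tet2-/- mice (two-sided exact permutation of the log2 ratio, p = 0.3). The size of this ratio depended on the unit, though the genotypes overlapped in each. Long coding TPM of *Ezh2* was 3.01, 2.46 and 2.05 times that of *Ezh1* in Tet2+/+ and 4.07, 2.69 and 3.01 times in Tet2-/- mice, and gene reads were 1.78 to 3.03 times as many over the 6 libraries. *Ezh2* held 84.5% to 90.8% of the summed gene TPM of the pair and 64.1% to 75.2% of its reads.

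The core subunits without which the enzymes are inactive were both at positive fold changes. *Eed* (ENSMUSG00000030619, chr7:89954654-89980983), which binds the methylated histone tail, was at 54.9, 55.2 and 45.6 CPM in Tet2+/+ and 61.7, 59.3 and 64.0 CPM in Tet2-/- mice. In CPM every Tet2-/- library lay above every Tet2+/+ library, by a small margin. In gene TPM they overlapped, at 69.4, 78.4 and 70.0 in Tet2+/+ and 72.9, 68.8 and 81.1 in Tet2-/- mice. The log2 fold change was 0.25 (standard error 0.15, 95% interval -0.11 to 0.60), with an unadjusted p of 0.142 and an adjusted p of 0.719 in edgeR (Benjamini-Hochberg). *Suz12* (ENSMUSG00000017548, chr11:79993106-80034123), the scaffold subunit, was at 186, 127 and 141 CPM in Tet2+/+ and 188, 175 and 160 CPM in Tet2-/- mice. Mouse 19 was as high as the Tet2-/- mice, and the log2 fold change was 0.20 (95% interval -0.26 to 0.66). It was 0.38 without mouse 19 and 0.073 without mouse 23.

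Summed gene TPM of *Ezh1* and *Ezh2* relative to *Suz12* was 1.43, 1.75 and 1.70 in Tet2+/+ and 1.39, 1.36 and 1.33 in Tet2-/- mice. Of 5 ratios compared in gene TPM, this was the 1 whose genotypes did not overlap (two-sided exact permutation of the log2 ratio, p = 0.1, the smallest possible). It depended on the unit, since the same ratio in reads was 0.816, 1.04 and 1.06 in Tet2+/+ and 0.836, 0.876 and 0.848 in Tet2-/- mice, which overlap. The enzymes relative to *Eed* ranged from 0.813 to 1.16 over the 6 libraries, and *Eed* relative to *Suz12* from 1.26 to 1.92, both overlapping between genotypes. From long coding transcripts alone, *Eed* relative to *Suz12* was 0.134, 0.121 and 0 in Tet2+/+ and 0.161, 0.221 and 0.215 in Tet2-/- mice, without overlap (two-sided exact permutation, p = 0.1), with mouse 24 at 0 because its long coding *Eed* is listed at 0.

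*Jarid2* (ENSMUSG00000038518, chr13:44729474-44921643) was at 77.0, 92.7 and 94.3 CPM in Tet2+/+ and 91.9, 78.4 and 102 CPM in Tet2-/- mice. The groups overlapped throughout, and the log2 fold change was 0.045 (95% interval -0.36 to 0.45), or -0.29 on length-scaled counts made from TPM.

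Of the deubiquitinase genes, *Bap1*, the catalytic subunit (ENSMUSG00000021901, chr14:31251450-31259944), was at 64.8, 66.1 and 62.7 CPM in Tet2+/+ and 77.5, 74.6 and 69.5 CPM in Tet2-/- mice. Each Tet2-/- library lay above each Tet2+/+ library, and the spread within both genotypes was narrow. The log2 fold change was 0.19 (standard error 0.14, 95% interval -0.13 to 0.52), with an unadjusted p of 0.201 and an adjusted p of 0.764 in edgeR (Benjamini-Hochberg). On length-scaled counts it was -0.19, so its direction depended on how reads were turned into a gene level. *Asxl2*, a partner of BAP1 (ENSMUSG00000037486, chr12:3426857-3506852), was at 70.7, 72.4 and 69.6 CPM in Tet2+/+ and 65.7, 72.1 and 75.6 CPM in Tet2-/- mice. It was the steadiest member in Tet2+/+ mice, with a coefficient of variation of 2.04%, and its log2 fold change was 0.0049 (95% interval -0.33 to 0.34).

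*Asxl1*, the other partner (ENSMUSG00000042548, chr2:153345829-153404007), was at 175, 133 and 155 CPM in Tet2+/+ and 89.8, 221 and 124 CPM in Tet2-/- mice. The Tet2-/- mice held both the lowest library (mouse 5) and the highest (mouse 7), which differ 2.46-fold, whereas the Tet2+/+ mice differed 1.32-fold at most. The log2 fold change was -0.09 (95% interval -0.87 to 0.69). It was 0.16 without mouse 5 and -0.53 without mouse 7 (unadjusted p = 0.0386 and adjusted p = 0.504 in edgeR). Gene TPM of *Asxl1* was 2.93, 2.35 and 2.09 times that of *Asxl2* in Tet2+/+ and 1.43, 3.41 and 2.03 times in Tet2-/- mice, with overlap.

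*Kdm6a* (ENSMUSG00000037369, chrX:18162575-18279936), the demethylase, had the widest fold range within each genotype among the members. It was at 71.2, 139 and 96.5 CPM in Tet2+/+ and 29.9, 84.8 and 76.4 CPM in Tet2-/- mice. Mouse 5 was 2.84-fold below mouse 7 within the Tet2-/- group, and mouse 23 was 1.95-fold above mouse 19 within the Tet2+/+ group. The log2 fold change of -0.68 was therefore wide in its interval, from -1.67 to 0.30, with an unadjusted p of 0.146 and an adjusted p of 0.724 in edgeR (Benjamini-Hochberg). Without mouse 5 it was -0.35, and with any 1 mouse left out it ran from -0.95 to -0.35. *Kdm6a* lies on the X chromosome, is transcribed from both copies in female cells and has a Y-linked relative, *Uty*, which stayed at 0.193 to 0.380 CPM. *Xist*, which silences the other X, was at 870, 1107 and 1338 CPM in Tet2+/+ and 694, 479 and 709 CPM in Tet2-/- mice, without overlap (unadjusted p = 0.0168 and adjusted p = 0.539 in edgeR, Benjamini-Hochberg), and its part in the *Kdm6a* values was not tested. The 3 other X-linked genes listed as escaping inactivation had positive log2 fold changes, 0.22 for *Kdm5c* without overlap, 0.19 for *Ddx3x* and 0.11 for *Eif2s3x* with overlap.

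**Figure D2:**
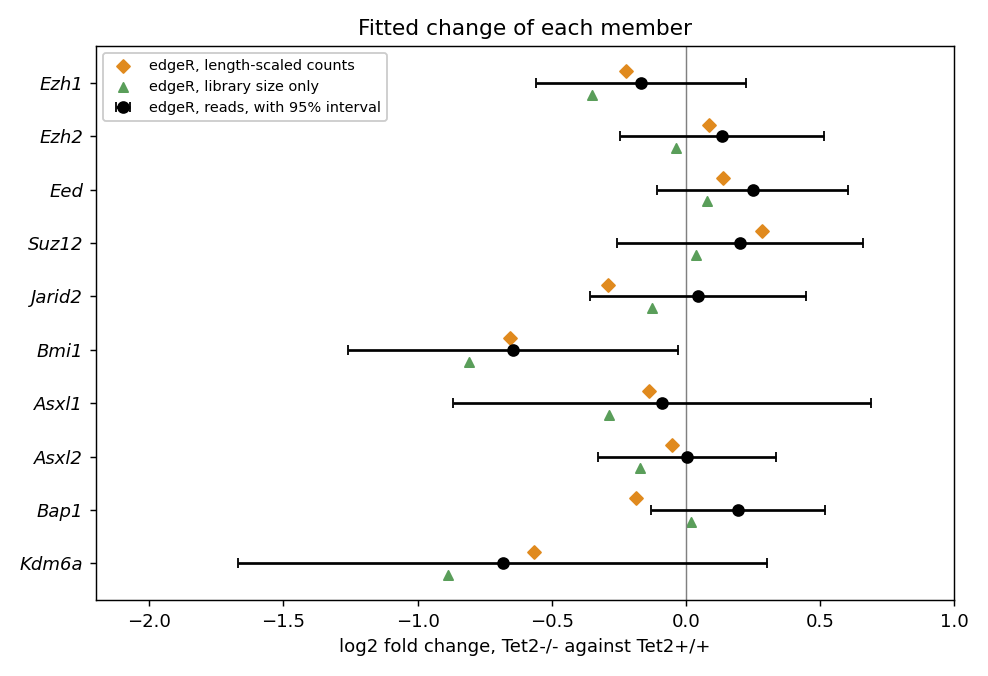
Log2 fold change of each member, Tet2-/- against Tet2+/+ (horizontal axis), from edgeR on summed reads with its 95% interval (black), from edgeR on length-scaled counts (orange diamonds) and with scaling by library size only (green triangles). The *Bmi1* interval of the summed reads, -1.26 to -0.03, is the only one that does not reach 0, and *Jarid2*, *Asxl2* and *Bap1* change sign with length scaling.

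Per length, the order of the members depended on which transcripts were summed. By gene TPM, all transcripts included, *Eed* was highest (73.5 on average over the 6 libraries), before *Ezh2* (64.9) and *Suz12* (50.1), and each was above the next in 6 of 6 libraries. A middle group followed with *Bap1* (21), *Bmi1* (18.9), *Jarid2* (17.2), *Asxl1* (16.7) and *Kdm6a* (15.7), whose ranges all overlap with the next in order. *Ezh1* (9.23) and *Asxl2* (6.99) were lowest. When only protein-coding transcripts of at least 2000 bases were summed, *Suz12* led (21.1 TPM), before *Ezh2* (15.5), *Asxl1* (11.3), *Bmi1* (10.5), *Kdm6a* (9.63), *Bap1* (8.29), *Jarid2* (7.03), *Ezh1* (5.56) and *Asxl2* (3.82), and *Eed* came last (3.05). On this scale the ranges of neighbours overlapped except between *Ezh1* and *Asxl2*, and *Suz12* was above *Ezh2* in 6 of 6 libraries.

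On the same scale *Bmi1* was at 10.6, 13.9 and 14.4 TPM in Tet2+/+ and 9.15, 5.06 and 9.93 TPM in Tet2-/- mice, without overlap. In gene TPM over all transcripts it was at 16.6, 29.7 and 25.0 in Tet2+/+ and 15.5, 8.80 and 17.4 in Tet2-/- mice, where mice 19 and 8 overlap. *Bap1* was at 7.32, 8.0 and 7.42 TPM in Tet2+/+ and 9.28, 9.20 and 8.49 TPM in Tet2-/- mice, higher in every Tet2-/- library. Its direction on long coding transcripts was thus that of the summed reads. *Eed* was at 3.13, 2.18 and 0 TPM in Tet2+/+ and 3.77, 4.73 and 4.50 TPM in Tet2-/- mice, and the value listed at 0 in mouse 24 stands beside 647 reads for the whole gene, placed on its other transcripts.

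**Figure D3:**
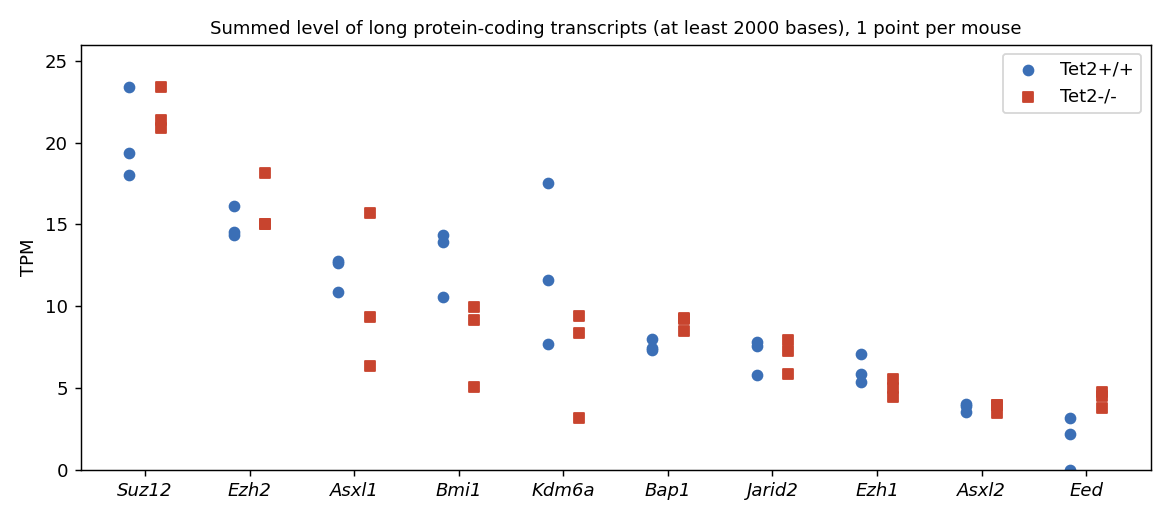
Summed TPM of protein-coding transcripts of at least 2000 bases (vertical axis) for each member, ordered by the mean over 6 libraries, with 1 point per mouse (blue circles Tet2+/+, red squares Tet2-/-). *Suz12* is highest at 18.0 to 23.4 TPM, *Kdm6a* spans 3.19 to 17.5 TPM, and the genotypes separate for *Bmi1*, *Bap1* and *Eed*. The *Eed* points are those of *Eed-201* (2067 bases) alone, so their separation depends on the length limit.

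Of the 94 transcripts, 61 had a mean of at least 0.5 TPM and were tested with limma on log2(TPM + 1), among 43598 transcripts. None of the 61 passed an adjusted p of 0.05, the smallest being 0.649 after Benjamini-Hochberg adjustment in limma, where 0.0642% of all transcripts passed. At an unadjusted p under 0.05 in limma, 2 were lower and 0 higher, against 4% and 2.66% of all transcripts. In TPM, 5 of 61 lay lower in every Tet2-/- mouse, against 7.65% of all transcripts tested, and 3 of 61 lay higher, against 4.8%.

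The 2 transcripts at an unadjusted p under 0.05 belonged to *Bmi1* and *Jarid2*. *Bmi1-201* (3594 bases, protein-coding) was at 2.17, 3.20 and 3.18 TPM in Tet2+/+ and 1.75, 1.04 and 1.49 TPM in Tet2-/- mice, a difference of -0.67 on the log2(TPM + 1) scale (unadjusted p = 0.0268 in limma). The main *Bmi1* transcript, *Bmi1-202* (2747 bases), was at 8.40, 10.7 and 11.2 TPM in Tet2+/+ and 7.40, 4.02 and 8.44 TPM in Tet2-/- mice, touching the Tet2+/+ range. All 4 *Bmi1* transcripts with at least 10% of the gene had negative differences, from -0.74 to -0.58. *Jarid2-213*, a coding model of 344 bases, was at 8.93, 5.46 and 9.54 TPM in Tet2+/+ and 3.38, 3.49 and 4.96 TPM in Tet2-/- mice, a difference of -0.84 on the log2(TPM + 1) scale (unadjusted p = 0.0182 in limma). It rests on few reads, 28, 17 and 23 in Tet2+/+ and 21, 10 and 16 in Tet2-/- mice. The long *Jarid2-208* (5997 bases) was at 5.39, 5.58 and 7.12 TPM in Tet2+/+ and 5.10, 5.24 and 6.63 TPM in Tet2-/- mice, with overlap.

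Of the 35 transcripts that held at least 10% of their gene's TPM on average in either genotype, 2 had a share that was lower in every Tet2-/- mouse (*Ezh1-205* and *Bap1-204*), against 7.02% of such transcripts over all genes of at least 5 TPM. The share of 3 (*Jarid2-208*, *Asxl2-202* and *Bap1-201*) was higher, against 6.73%. The smallest p adjusted over the 35 shares was 0.7 (exact two-sided permutation tests with Benjamini-Hochberg adjustment). The other 59 transcripts averaged at most 5.61 TPM each.

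*Bap1* had the largest difference in the TPM share of any transcript class between the genotypes. Protein-coding transcripts, in practice *Bap1-201* (3460 bases), held 36.1%, 30.6% and 32.1% of *Bap1* TPM in Tet2+/+ and 52.3%, 51.6% and 40.6% in Tet2-/- mice. Transcripts annotated for nonsense-mediated decay, a pathway that destroys messages with an early stop, held 40.0%, 45.3% and 43.3% in Tet2+/+ and 28.9%, 16.5% and 36.6% in Tet2-/- mice. The coding share was 48.1% ± 6.57 against 32.9% ± 2.83 (SD, n = 3 each, exact two-sided permutation p = 0.1, and 1 after adjustment over all shares compared). Of 32 shares compared (the transcript classes of the members and the part of *Ezh2* in its pair), these were the only 2 without overlap. Over 2124 genes with both kinds of transcript and at least 5 TPM in every library, the coding share was higher without overlap in 8.99% and the decay share lower without overlap in 5.6%. The coding share was higher by at least as much as that of *Bap1* in 1.69% of these genes, a background computed after the *Bap1* values were seen.

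The reads behind the shares are uneven. *Bap1-204* (621 bases, decay class) had 74, 99 and 67 reads in Tet2+/+ and 118, 15 and 61 reads in Tet2-/- mice, whereas *Bap1-201* had 816, 881 and 627 reads in Tet2+/+ and 2053, 975 and 1005 reads in Tet2-/- mice. In reads, which are not divided by length, the coding share was 75.4%, 71.4% and 70.3% in Tet2+/+ and 83.8%, 83.9% and 78.5% in Tet2-/- mice, again without overlap. The retained-intron share, which overlapped in TPM, was lower without overlap in reads, at 13.6%, 14.5% and 17.1% in Tet2+/+ and 10.5%, 12.1% and 11.6% in Tet2-/- mice. How often shares in reads separate the genotypes over all genes was not computed.

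**Figure D4:**
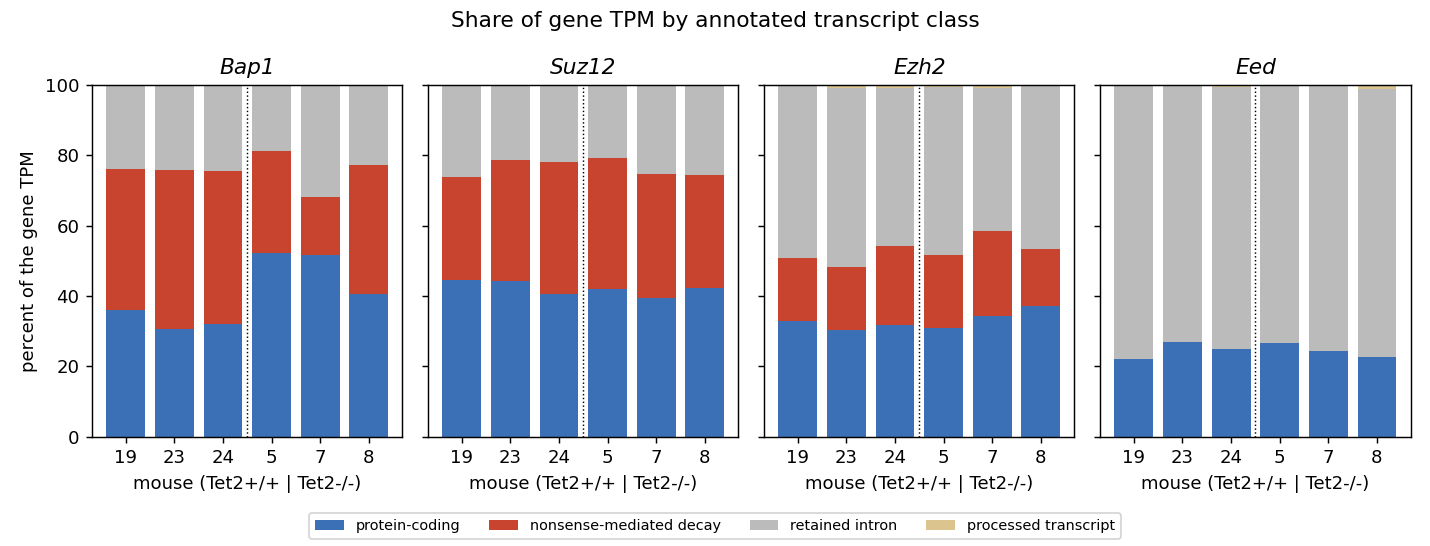
Share of gene TPM (vertical axis, percent) in each annotated transcript class for *Bap1*, *Suz12*, *Ezh2* and *Eed*, 1 bar per mouse, with Tet2+/+ mice left and Tet2-/- mice right of the dotted line. The coding share of *Bap1* is 30.6% to 36.1% in Tet2+/+ and 40.6% to 52.3% in Tet2-/- mice, while retained-intron models hold most of *Eed* in every library.

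In no other member did the TPM share of a transcript class separate the genotypes, though some varied widely between mice, such as the coding share of *Jarid2* (67.6% to 92.1%) and of *Asxl1* (59.6% to 82.5%). Retained-intron models held 73.0% to 78.0% of *Eed* TPM in every library, and coding transcripts 22% to 27%, mostly the short *Eed-205* (767 bases). In *Ezh2*, the 500-base retained-intron model *Ezh2-213* alone held 34.4% of TPM in Tet2+/+ and 31.2% in Tet2-/- mice, and coding transcripts held 30.3% to 37.1%. In *Suz12*, coding transcripts held 39.3% to 44.6% and decay transcripts 29.3% to 37.7%. Because reads of a short model count more per base, these shares are of TPM and not of reads. In reads, the retained-intron share of *Eed* was 62.9%, 59.01% and 66.6% in Tet2+/+ and 56.2%, 56.1% and 58.99% in Tet2-/- mice, lower without overlap by a small margin. For this share too, no rate over all genes was computed in reads.

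Pairs of near-equal length were split unevenly between libraries. *Ezh1-202* (4207 bases) was at 3.06 TPM in mouse 5 and listed at 0 in the other 5 libraries, whereas *Ezh1-203* (4193 bases) was at 1.22 TPM in mouse 5 and between 4.45 and 6.35 TPM in the others. All long coding *Ezh1* transcripts together were at 4.47, 5.57 and 5.00 TPM in mice 5, 7 and 8, mouse 5 being the lowest of the 6 libraries. *Suz12-201* (4373 bases) was at 21.6 TPM and *Suz12-206* (4303 bases) at 1.80 TPM in mouse 19, against 11.9 and 7.48 TPM in mouse 24. Differences between such models were not read as differences between genotypes.

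Among 48 tested genes of 49 listed that complete the same complexes, 0 passed an adjusted p of 0.05 in edgeR or DESeq2, against 0.0451% and 1.74% of all genes. In edgeR, 0 were lower and 1 higher at an unadjusted p under 0.05 (5.12% and 3% of all genes), and without overlap 2 were lower and 6 higher (7.94% and 6.41% of all genes). Their median log2 fold change was 0.071. The 1 gene was *Dpy30*, a subunit of the methyltransferase complexes in which KDM6A works, at 23.9, 19 and 17.5 CPM in Tet2+/+ and 32.9, 23.4 and 29.8 CPM in Tet2-/- mice, which overlap (log2 fold change 0.51, unadjusted p = 0.0494 and adjusted p = 0.614 in edgeR, Benjamini-Hochberg). Of the same complexes, *Wdr5* had a log2 fold change of 0.37 (95% interval -0.02 to 0.76) and *Paxip1* of 0.25 (-0.09 to 0.58), both without overlap. Over the whole wider list, the 2 lower without overlap were *Bcor* and *Pcgf6*. The 6 higher without overlap were *Wdr5*, *Paxip1*, *Rbbp5*, *Yaf2*, *Foxk1* and *Foxk2*.

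Of the 21 other PRC1 genes, *Rnf2*, which encodes the ubiquitin ligase RING1B that BMI1 activates, was at 41.9, 55.0 and 59.0 CPM in Tet2+/+ and 40.5, 33.5 and 42.2 CPM in Tet2-/- mice. Mouse 8 exceeded mouse 19 by a fraction of a CPM, and the log2 fold change was -0.42 (95% interval -0.88 to 0.03). *Bcor*, of the variant PRC1 complexes, was at 77.6, 88.9 and 82.9 CPM in Tet2+/+ and 75.5, 52.2 and 64.9 CPM in Tet2-/- mice, without overlap (log2 fold change -0.37, 95% interval -0.80 to 0.05). *Yaf2*, a paralog of RYBP, had a log2 fold change of 0.45 (95% interval -0.02 to 0.91) and did not overlap.

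Of the 9 tested other PRC2 genes, *Mtf2* had a log2 fold change of -0.26 (95% interval -0.68 to 0.15), *Lcorl* of -0.20 (-0.60 to 0.21) and *Phf19* of 0.34 (-0.40 to 1.08), each with overlap. Of the 7 other deubiquitinase genes, the values were -0.39 for *Ogt* (-0.87 to 0.08), 0.30 for *Foxk2* (-0.06 to 0.66) and -0.35 for *Kdm1b* (-0.88 to 0.17). Of the 7, *Foxk2* and *Foxk1* were higher in every Tet2-/- mouse than in any Tet2+/+ mouse, against 6.41% of all genes. The margin of *Foxk1* was small (82.5 to 86.75 against 86.84 to 102 CPM), and the other 5 overlapped.

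Genes that Polycomb is known to hold silent in blood cells were near the floor in both genotypes. Their summed level was 3.37 to 6.10 CPM in Tet2+/+ and 2.31 to 11.2 CPM in Tet2-/- mice, and 3 of 10 (*Hoxa5*, *Hoxa10* and *Lin28b*) did not reach the filter. *Cdkn2a*, the tumor suppressor that BMI1 represses, was at 2.75, 1.45 and 1.27 CPM in Tet2+/+ and 4.30, 0.836 and 7.27 CPM in Tet2-/- mice, with mouse 7 the lowest and mouse 8 the highest. The groups overlapped. Of the 7 tested genes, 1 was higher without overlap (6.41% of all genes), *Igf2bp3*, at 0 to 0.282 CPM in Tet2+/+ and 0.386 to 0.538 CPM in Tet2-/- mice.

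Proliferation genes are given beside the PRC2 members, since *Ezh2* is known to be high in dividing cells. All 12 had positive log2 fold changes, with a median of 0.43, and 0 passed an adjusted p of 0.05. At an unadjusted p under 0.05 in edgeR, 2 of 12 were higher (*Ccna2* and *Aurkb*), beside 3% of all genes, and 5 of 12 were higher without overlap, beside 6.41% of all genes. Their summed level was 1667 to 2434 CPM in Tet2+/+ and 2453 to 2854 CPM in Tet2-/- mice, without overlap. The part of proliferation in the values of the members was not tested.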

How the data were processed

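Per the study's methods, RNA of sorted blasts was made into TruSeq v2 libraries, which do not mark strand, and quantified with Salmon 0.12.0, named in the submitters' processing notes, with Ensembl transcripts (GRCm38). The authors' estimated counts are reads per transcript without normalization. Deposited TPM are Salmon's own, per effective length. Estimated counts were summed here to GENCODE M21 genes and rounded. The 112 of 136288 transcripts without a gene were left out of gene sums. Genes whose normalized counts summed to at least 10 were tested with edgeR 4.0.16 (quasi-likelihood, TMM, R 4.3.3), and transcripts with a mean of at least 0.5 TPM with limma 3.58.1 on log2(TPM + 1), each with Benjamini-Hochberg adjustment and a threshold of 0.05. Single values were compared by exact permutation. Fold changes of TPM with a pseudocount understate low transcripts. DESeq2 1.42.0, length-scaled counts, other scalings and filters and leaving out each mouse were alternatives. Antisense reads cannot be told apart from the member's, and overlapping genes reached at most 7.88 CPM (*1110002L01Rik*, beside *Asxl2*). The tests were tried on simulated data.

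Members and lists were chosen with earlier results of these data known. Named were all members, transcripts with at least 10% of their gene's TPM, and in each group of the wider list the 3 smallest unadjusted p among genes of at least 1 CPM. Genes of the wider list without overlap were named as well. Of the wider list, *Ezhip* was not matched. The mouse numbers do not pair the genotypes and the labels give no batch. Figures were drawn with matplotlib 3.10.9.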

Additional observations from a re-analysis of the deposited data

How the results depend on the processing

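No member passed an adjusted p of 0.05 in any of 14 alternative fits, and the lowest adjusted p was 0.428 (*Bmi1*, DESeq2). *Bmi1*, *Ezh1*, *Eed*, *Suz12* and *Kdm6a* kept their direction in all of them, and the log2 fold change of *Bmi1* lay between -0.81 and -0.42. Scaling by library size only shifted the median of all genes by -0.17 and gave *Ezh2* -0.038, *Jarid2* -0.13 and *Asxl2* -0.17. Length-scaled counts gave *Jarid2* -0.29 in both edgeR and DESeq2, *Bap1* -0.19 in edgeR and -0.18 in DESeq2, and *Asxl2* -0.050 in edgeR and -0.047 in DESeq2, and filterByExpr gave *Asxl2* -0.014. Summing only long protein-coding transcripts, chosen after the values were seen, gave log2 ratios of mean TPM, without a fit and without TMM scaling. These were -0.0051 for *Jarid2* and -0.00052 for *Asxl2*. For *Bap1* the long coding sum gave 0.25, and for *Eed* it gave 1.29 against 0.25 from the summed reads, with 1 Tet2+/+ library of *Eed* listed at 0. That *Eed* sum holds *Eed-201* alone, so its value depends on the length limit. With 1 mouse left out, the log2 fold change was -0.050 to 0.14 for *Jarid2*, -0.53 to 0.16 for *Asxl1* and -0.043 to 0.052 for *Asxl2*.

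At an unadjusted p under 0.05, the number of members lower was 0 on length-scaled counts in edgeR and DESeq2 and 0 to 1 with 1 mouse left out. In the wider list, 1 gene was lower on length-scaled counts in either tool, 4 with library size only, 2 with filterByExpr and 0 to 3 with 1 mouse left out, and 0 were higher with library size only and 0 to 2 with 1 mouse left out. Over all genes at the same unadjusted p, library size only gave 1565 lower and 258 higher of 22170, against 1135 and 664 with TMM, length-scaled counts gave 1087 lower in edgeR and 1083 in DESeq2 of 22269, and filterByExpr gave 843 lower of 15266. The cause of these shifts was not tested.

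With edgeR on transcript counts, *Ezh2-206* was at 0.061 and *Suz12-201* at -0.021. With 1 mouse left out, the log2 differences were -0.16 to 0.26 for *Ezh2-206*, -0.18 to 0.025 for *Eed-205*, -0.37 to 0.044 for *Eed-208*, -0.054 to 0.12 for *Eed-203*, -0.16 to 0.25 for *Suz12-201*, -0.18 to 0.031 for *Jarid2-208*, -0.023 to 0.080 for *Asxl2-202*, -0.13 to 0.0076 for *Asxl2-205* and -0.74 to 0.0042 for *Kdm6a-207*. No transcript of a member passed an adjusted p of 0.05 under any setting. No paired analysis was possible because the genotypes share no mouse numbers. The spread over all genes among like mice, 43.6% as edgeR's biological coefficient of variation, limits with 3 mice per genotype the size of difference that can pass the test.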
